A study of Homo sapiens with 6 samples.

Results

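PRDX1, a peroxiredoxin, read at or below 10.0 on every array labelled as the Fry-transfected clone and between 3040.1 and 3367.8 on every array of untransfected cells. Its neighbours MMACHC and CCDC163 read at or below 10.2 on every array of the clone and between 61.6 and 198.7 on those of untransfected cells. The set described here holds 10 genes: the peroxiredoxins PRDX1 to PRDX6, sulfiredoxin (SRXN1), thioredoxin (TXN), and CCDC163 and MMACHC, which lie beside PRDX1 on chromosome 1. They were chosen by name with values of this comparison already known, among them the fall of PRDX1. Their values are therefore a description and carry no test. Of 19775 genes that a probe set of the array names alone, these are 9, read by 16 of 54613 probe sets. PRDX5 is named by no probe set in the annotation used here and was not analysed. No probe set of the other members names a second gene.

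By their labels, the 6 arrays were of total RNA from MDA-MB-231, an established line of human breast tumour cells. One group of 3 was not transfected. The other 3 were labelled as 231wCFry, described as a single stable clone of the line. It was made with a cDNA of 10791 base pairs for wild-type Cop rat Fry in a plasmid derived from pEGFP-N1, and selected with puromycin. Both were grown in the same serum-containing medium. The clone was picked for a Fry level like that of MCF10A, a normal mammary line, and no empty-vector clone is described. The samples of each line differed in passage, which is given for none, and nothing says that they came from separate cultures, so p-values measure only the spread between these samples. In bulk RNA, fewer cells carrying a transcript and less of it per cell cannot be told apart.

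The arrays labelled 231wCFry went against the markers of their label. Of 8 breast epithelial markers tested, 7 were lower in them, 0 higher, and KRT19 read 0.9 to 1.5 against 1623.4 to 1709.9. Of 7 melanocyte and neural crest markers tested, 6 were higher, and SOX10 read 1376.1 to 1419.6 against 0.2 to 0.8, and S100B 1709.3 to 1877.6 against 0.1 to 1.7. Of all genes tested, 33.1% were lower and 34.1% higher in the clone, by the threshold given below. The summed signal of the first list ran from 8734.1 to 9408.5 in untransfected samples and from 1702.0 to 1866.2 in the clone, and that of the second ran from 384.6 to 469.0 and from 5005.3 to 5470.2. The pigment gene PMEL read 3.2 to 14.3 over both groups and did not pass (adjusted p = 0.114), though it would be called lower without untransfected sample 3 (0.00658). CDH1 read 5.0 to 13.5. Of 10 mesenchymal markers 4 were higher and 4 lower, with VIM not passing (adjusted p = 0.184, but 0.034 and higher after quantile normalization). Human FRY was at or below 9.8 on all arrays, and the introduced cDNA is of rat. The signal ratio of the 3' to the 5' GAPDH control probe set, a sign of RNA quality, was 1.36 to 1.39 in untransfected samples and 1.24 to 1.33 in the clone. The like ratio of ACTB was 2.59 to 3.0 and 2.45 to 2.65, with overlap. What part these differences have in the values below was not tested. Whether the cells of the arrays labelled 231wCFry derive from MDA-MB-231 was not tested either. Below, "the clone" means the arrays so labelled, and "rose" and "fell" mean higher and lower in them. No difference is read as a change within a line.

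Peroxiredoxins are thiol enzymes that reduce hydrogen peroxide and organic peroxides with a conserved cysteine. The oxidised cysteine is returned to its working form by thioredoxin, which thioredoxin reductase recharges with NADPH, and sulfiredoxin repairs the overoxidised form. PRDX1 and PRDX2 work mainly in the cytosol, PRDX3 in mitochondria and PRDX4 in the endoplasmic reticulum, while PRDX6 recycles with glutathione. MMACHC is a cytosolic enzyme that prepares cobalamin for its use as a cofactor, and has no known part in the thioredoxin cycle.

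CCDC163 and MMACHC start in opposite directions from the 2 ends of one stretch of 226 bases. It is shown because both genes were low together in the clone. Its sequence from RefSeq (GRCh38.p14, chr1:45500074-45500299, plus strand), with the start of CCDC163 just left of it and that of MMACHC just right, holds 51.8% G and C and 12 CG pairs, and the capitals mark the activator protein 1 consensus TGACTCA:
shared interval: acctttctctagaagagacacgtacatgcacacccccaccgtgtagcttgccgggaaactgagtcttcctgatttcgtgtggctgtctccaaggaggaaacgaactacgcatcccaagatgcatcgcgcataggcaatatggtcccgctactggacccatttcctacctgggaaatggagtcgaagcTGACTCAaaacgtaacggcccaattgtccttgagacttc
The motif begins 39 bases before the start of MMACHC. On either strand it is in 4.95% of the 35116 RefSeq promoter windows of the same 300-base length. The antioxidant response element core TGACNNNGC, the site bound by NRF2, is in 13.3% of all windows. It is in none of those held here for PRDX2, PRDX3, PRDX4, PRDX5, SRXN1, TXN, CCDC163 or MMACHC. No window was held for PRDX1 or PRDX6, and bases outside the 300-base windows were not searched. The E-box CACGTG is in 7.26% of windows and, among the members with a window, only in those of PRDX3 and PRDX4 (minus strand, chr10:119178952-119178980, and plus strand, chrX:23667399-23667427):
PRDX3: agtaggaaaacCACGTGtcacttgcccaa
PRDX4: cggccggcgccCACGTGgcggggcgggga
A match of letters is a description and shows no binding.

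Among the genes in order along the chromosome, CCDC163, MMACHC and PRDX1 are consecutive, and all 3 were low on every array of the clone. PRDX1 read 3040.1, 3255.0 and 3367.8 in the untransfected samples and 10.0, 7.6 and 7.6 in the clone. The lowest untransfected sample was over the highest sample of the clone by a wide margin. The mean signal was 3221 ± 166 (SD, n = 3) against 8.4 ± 1.39, a ratio of 383. The clone readings were dim, under the median signal of their arrays (10.7, 10.7 and 11.2), so the size of this ratio is uncertain. On log2(signal + 16), where 16 is added to damp the noise of dim values, the difference was -7.05 (SE 0.092). In rank over all probe sets, the mean of PRDX1 went from the 99.3th percentile in untransfected samples to the 47.2th in the clone. Among 13630 genes tested its negative difference was the 3rd in size on log2(signal + 16), an order that depends on the 16 added. Among the genes named here, the ratio of mean signals was larger for IGFBP4 (847), YIF1B (996) and PLAU (416). The clone readings of IGFBP4 (4.0, 3.7 and 2.4) and YIF1B (3.7, 0.1 and 4.5) were near background, so their ratios are uncertain. Genes at background in the clone have bounds only, such as CYP1B1 (at least 652), KRT19 (at least 474) and GPX3 (at least 180.2). Their order against PRDX1 by the ratio of means was not determined. The value of PRDX1 rests on 1 probe set. Where its probes lie in the transcript was not determined.

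MMACHC read 195.8, 177.7 and 163.8 in the untransfected samples and 1.3, 2.7 and 2.1 in the clone. The clone's 3 readings were at or below the highest of 27 unspiked bacterial control probe sets on the same array (2.7 to 4.9 in the clone), so they are not above background. Against that level MMACHC was at least 50.7-fold lower, with a difference of -3.43 (SE 0.096) on log2(signal + 16). MMACHC, like PRDX1, rests on 1 probe set. It is marked _s_at, a type left out in a setting given below. RefSeq gives MMACHC and PRDX1 spans that overlap.

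CCDC163, a coiled-coil gene, had 2 probe sets that differed alike. The brighter read 196.0, 198.7 and 151.3 against 3.1, 4.6 and 6.7, a ratio of mean signals of 37.9 and a log2 difference of -3.25 (SE 0.122). The other read 105.3, 104.7 and 61.6 against 3.1, 9.9 and 10.2, with a ratio of 11.7. It is of a type, marked _x_at, prone to bind related transcripts. The groups lay apart on each, and in both the third untransfected sample was the lowest of its group. On clone sample 1 both probe sets read 3.1, under the highest bacterial control of that array (3.3), so the ratios are uncertain in size.

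The genes read on either side did not share this size of difference. CCDC163 and MMACHC were made members with earlier results of these data known, so their contrast with the genes left over is a description only. Of the other 18 protein-coding genes within 10 places of PRDX1, 16 have a probe set and 14 passed the filter on low signal. Of those 14, 3 rose, 4 fell and 7 did not pass (Benjamini-Hochberg adjusted p under 0.05, limma, over all probe sets), where 67.1% of all genes tested passed, 34.1% higher and 33.1% lower. With each gene read by its brightest probe set, their differences lay between -0.87 and 0.39 on log2(signal + 16), with a median of -0.09 beside 0.01 for all genes. TESK2, a kinase gene next to CCDC163, read 28.1, 41.0 and 19.3 against 25.4, 26.2 and 21.2, and its overlapping groups did not pass (adjusted p = 0.441). It was dim in both groups, so it can show less of a fall than PRDX1 could.

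On that side TOE1, a nuclear exonuclease, rose from 289 ± 25.2 (SD, n = 3) to 354 ± 19.2 (log2 difference 0.28, adjusted p = 0.0313). UROD, an enzyme of haem synthesis, rose from 1201 ± 30.5 to 1579 ± 110.2 (0.39, adjusted p = 0.00452), and its 2 other probe sets rose too. The base-excision glycosylase gene MUTYH (139.7 ± 25.5 to 163 ± 16.9), HECTD3, a ubiquitin ligase (314 ± 46.4 to 277 ± 23), and EIF2B3, a translation factor subunit (391 ± 14.5 to 384 ± 39), did not pass. Neither ZSWIM5 nor HPDL reached the signal filter. The call of TOE1 was lost without untransfected sample 2 or 3 or clone sample 1 or 2 (adjusted p = 0.0582 to 0.109), and with 1 added in place of 16 (0.0509). Leaving out untransfected sample 1 would call MUTYH higher (adjusted p = 0.0346), and leaving out untransfected sample 3 would call HECTD3 lower (0.0438).

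On the other side AKR1A1, the next gene, has no probe set named alone here. NASP, a histone chaperone and the nearest gene read there, fell from 488 ± 54.5 to 349 ± 26.7 (log2 difference -0.46, adjusted p = 0.00449). Its second brightest probe set fell further, from 325.1, 299.2 and 273.6 to 104.7, 121.7 and 87.5 (-1.39, adjusted p = 8.36e-06), outside the range given above, and its dimmest fell too (adjusted p = 0.0365). CCDC17 fell from 38.7 ± 9.3 to 13.7 ± 2.41 (-0.87, adjusted p = 3.44e-04), PIK3R3, a regulatory subunit of PI 3-kinase, from 177 ± 19.3 to 113 ± 1.07 (-0.57, adjusted p = 7.34e-04) and TSPAN1, a tetraspanin, from 17.6 ± 2.74 to 2.87 ± 2.1 (-0.83, adjusted p = 1.50e-04). On 2 of the 3 clone arrays TSPAN1 was at or below the highest bacterial control, so its size is uncertain. TMEM69 rose from 752 ± 37.4 to 904 ± 61.8 (0.26, adjusted p = 0.0356), a call lost without any one of 5 of the 6 arrays, all but untransfected sample 3 (adjusted p = 0.0548 to 0.110), and with 1 added (0.0549). GPBP1L1 (891 ± 20.7 to 924 ± 138), IPP (47.9 ± 4.3 to 48.1 ± 5.6) and MAST2 (267 ± 25.4 to 220.2 ± 20.4) did not pass. MAST2 would be called lower without untransfected sample 3 or clone sample 1 (adjusted p = 0.0255 and 0.0444), with the 60th percentile filter (0.0429), with 64 added (0.0313) and after quantile normalization (0.0465). Of these, IPP has 2 dimmer probe sets that rose. The brighter probe set of CCDC163 stood at 2.64% of its untransfected mean, the dimmer at 8.54% and MMACHC at 1.14%. Each of these percentages includes clone readings at or near background. Over all probe sets of the neighbours read here, the lowest was that of TSPAN1 at 16.3%, a value that rests on readings near background.

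**Figure D1:**
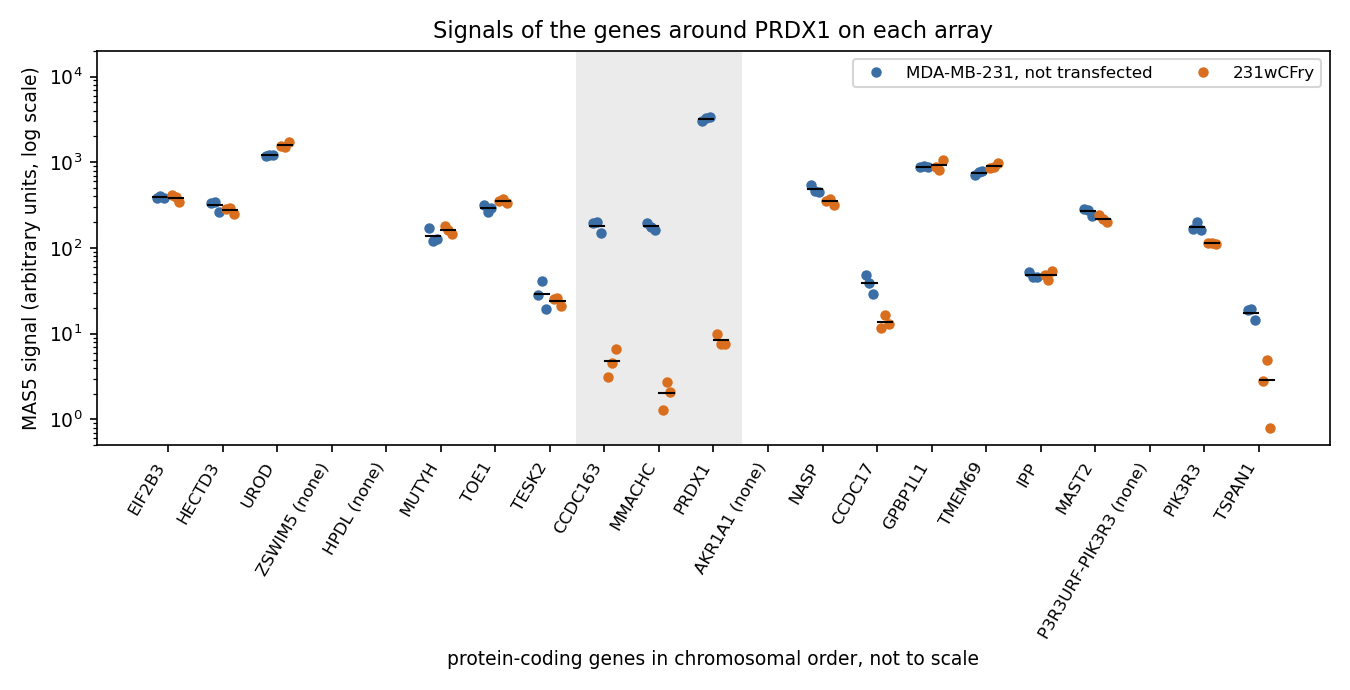
MAS5 signal on a log scale for PRDX1 and the protein-coding genes up to 10 places on either side, in chromosomal order, on each of 3 untransfected (blue) and 3 231wCFry (orange) arrays; black bars are group means and "none" marks genes with no tested probe set naming them alone. In the grey band the probe sets of CCDC163, MMACHC and PRDX1 drawn read at or below 10.0 on all clone arrays. Those drawn for TESK2, next to CCDC163, and for NASP lay within 19.3 to 550.2 on all arrays. AKR1A1, between PRDX1 and NASP, was not read.

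PRDX2, PRDX3, PRDX4 and PRDX6 stayed bright in the clone on their brightest probe sets, and their differences were small beside that of PRDX1. PRDX3, the mitochondrial form, read 1795.3, 1759.8 and 1954.6 in untransfected samples and 1338.1, 1195.7 and 1340.1 in the clone, with no overlap. Its mean was 70.3% of the untransfected mean (log2 difference -0.50, SE 0.094). A second, dim probe set read 9.7 to 13.6 against 3.9 to 7.1. PRDX6, which also has phospholipase activity, read 2776.3, 2763.9 and 2874.0 against 2010.6, 2060.8 and 2309.1 on the brighter of 2 probe sets, or 75.8% (-0.40, SE 0.092). On the other it read 1905.9, 2016.3 and 2114.9 against 1671.5, 1698.2 and 1834.4, or 86.2%. On both probe sets every clone sample was below every untransfected one.

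PRDX4 and PRDX2 lay the other way. PRDX4, the form of the secretory pathway, read 1801.9, 2024.8 and 2018.0 in untransfected samples and 2381.9, 2330.8 and 2511.5 in the clone, or 124% (log2 difference 0.30, SE 0.092). Its groups did not overlap. PRDX2, the closest relative of PRDX1 in the cytosol, has 4 probe sets. The brightest read 1930.1, 2037.6 and 2043.9 against 2332.0, 2121.2 and 2320.4, or 113% (0.17, SE 0.089), again without overlap. The other 3 were dimmer and their groups overlapped: they read 122.5 to 156.7 against 132.3 to 149.9, 29.1 to 48.9 against 29.3 to 37.6, and 8.5 to 36.0 against 16.4 to 36.6.

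Of the partners, thioredoxin was slightly lower and sulfiredoxin slightly higher in the clone. TXN read 4114.2, 4264.5 and 4415.5 against 3734.2, 3469.4 and 3989.1 on the brighter of 2 probe sets, or 87.5%, and 3473.7, 3244.0 and 3378.9 against 2893.5, 2830.9 and 2775.1 on the other, or 84.2%. SRXN1 read 853.1, 938.7 and 951.9 against 1045.5, 1120.0 and 1047.1, or 117% (log2 difference 0.22, SE 0.090). Neither gene's groups overlapped on these probe sets, where this held for 67.4% of all probe sets tested. TXN and SRXN1 are also known targets of NRF2.

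**Figure D2:**
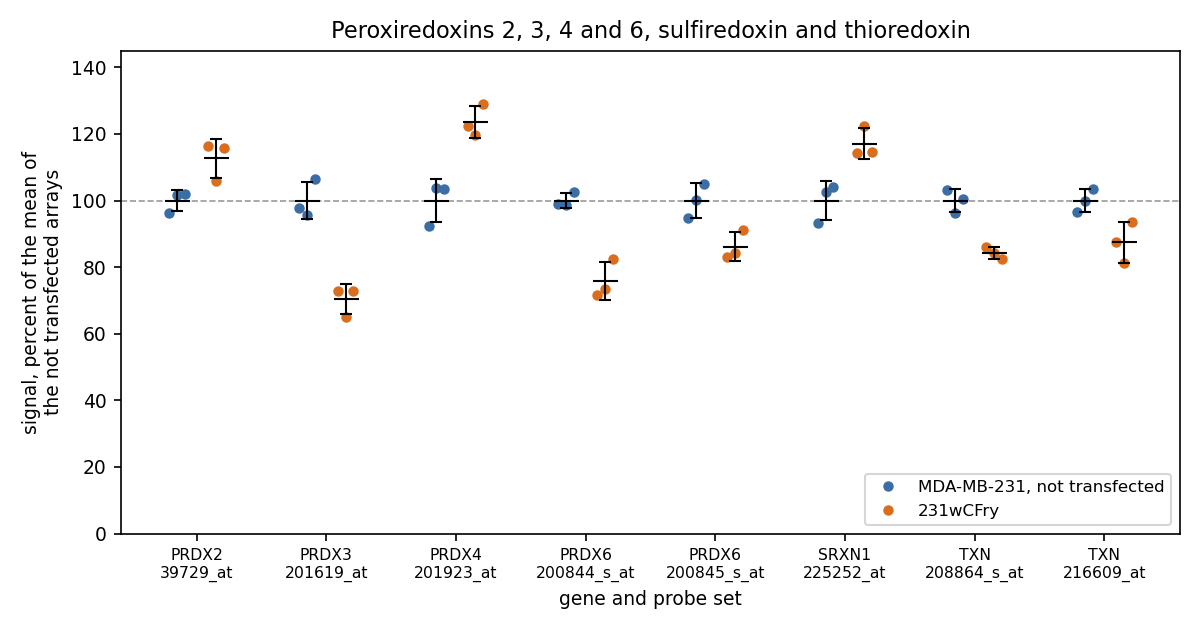
Signal of each array as a percentage of the mean of the untransfected arrays, for the probe sets of PRDX2, PRDX3, PRDX4, PRDX6, SRXN1 and TXN with an untransfected mean of 500 or more; points are arrays, and bars are means with 1 SD (n = 3). PRDX3, PRDX6 and TXN lie below 100 and PRDX2, PRDX4 and SRXN1 above it in the clone, with means from 70.3% to 124%.

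Counted together, the groups did not overlap for 13 of the 16 member probe sets, where this held for 67.4% of all probe sets tested. By the threshold used for the other genes, 8 member probe sets would be called lower and 1, that of PRDX4, higher, where 62.6% of all probe sets tested were called, 32.3% lower and 30.3% higher. Without untransfected sample 1 or clone sample 3, the probe set of PRDX4 would not be called, which leaves 7 lower and 0 higher. With 16 added and all 6 arrays, the brightest probe sets of PRDX2 and TXN and that of SRXN1 would not be called. SRXN1 would be called higher with the 60th percentile filter, after quantile normalization and with the unmoderated variance. With 64 added in place of 16, all of these would be called. In that setting 9 member probe sets would be called lower and 3 higher, where 20171 of 32771 probe sets were called. These counts come from the comparison that chose PRDX1 and nothing is read from them. Over the 9 genes read, each by its brightest probe set, the median log2 difference was -0.40. All 16 probe sets passed the filter on low signal.

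The 5 genes whose log2(signal + 16) over the 6 arrays was nearest to that of PRDX1, by Euclidean distance, were IGFBP4 (distance 0.68), PLAU (0.71), YIF1B (0.82), SPANXB1 (0.95) and CYP1B1 (1.19). IGFBP4, which binds insulin-like growth factors, read 2713.7 to 3032.2 in untransfected samples and 2.4 to 4.0 in the clone. PLAU, the urokinase, read 2191.0 to 2975.2 and 5.4 to 7.2. None of them is within 10 places of PRDX1. With 6 arrays in 2 groups, this likeness is mainly that of a high and a low group.

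The rest of the thioredoxin system divided. Of 13 genes listed 11 were tested, and 4 rose, 4 fell and 3 did not pass, where 67.1% of all genes passed, with a median log2 difference of 0.10 beside 0.01 for all genes. NXN, a thioredoxin-like protein, fell from 1486 ± 185 (SD, n = 3) to 104 ± 13.9 (log2 difference -3.64, adjusted p = 1.43e-08). TXNIP, which binds and inhibits thioredoxin, fell from 1401 ± 146 to 255 ± 38.8 (-2.39, adjusted p = 3.05e-07). The mitochondrial pair of PRDX3 rose: TXN2 went from 443 ± 18.9 to 807 ± 37 (0.84, adjusted p = 2.85e-05) and its reductase TXNRD2 from 72.4 ± 11.9 to 223 ± 10.4 (1.44, adjusted p = 4.29e-06). The cytosolic reductase TXNRD1, read to set beside TXN, was 3517 ± 398 and 4101 ± 588 and did not pass (adjusted p = 0.172), though it would be called higher after quantile normalization (adjusted p = 0.0368).

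Other peroxide-handling enzymes also divided. Of 13 tested glutathione peroxidases, glutathione enzymes and glutaredoxins, 2 rose, 6 fell and 5 did not pass, where 67.1% of all genes passed. Their median log2 difference was -0.15. GPX3, a secreted glutathione peroxidase, read 516.6, 685.5 and 721.9 against 2.1, 0.5 and 0.4, at or below the bacterial controls, and was at least 180.2-fold lower (adjusted p = 1.63e-09). GPX7, of the secretory pathway like PRDX4, was at least 20.3-fold lower on the same basis (adjusted p = 2.03e-07). The subunits of glutamate-cysteine ligase, the first step of glutathione synthesis, moved apart: GCLM fell from 802 ± 67.9 to 307 ± 25.8 (-1.34, adjusted p = 3.62e-06) and GCLC rose from 232 ± 29.6 to 449.7 ± 6.25 (0.92, adjusted p = 5.18e-05).

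Of 5 superoxide dismutase and catalase genes, 1 rose, 1 fell and 3 did not pass (median log2 difference -0.12), where 67.1% of all genes passed. SOD3, the extracellular form, was at least 13.5-fold lower (adjusted p = 1.14e-06). SOD2, of mitochondria, went from 2326 ± 269 to 2938 ± 349 (0.33, adjusted p = 0.0403) with overlapping groups, and lost its call without untransfected sample 1 or 3 or clone sample 1 or 3 (adjusted p = 0.0613 to 0.140), with no filter (0.0646), with 1 added (0.0826) and with the unmoderated variance (0.118). Catalase (CAT) stood at 754 ± 31.9 and 692 ± 18.3 (adjusted p = 0.258), and the copper chaperone CCS at 131 ± 18.8 and 101 ± 17.2 (adjusted p = 0.0641), which would be called lower without untransfected sample 3 or clone sample 1 (0.0234 and 0.0306) and after quantile normalization (0.0365).

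Sestrins are stress-induced proteins. SESN2 rose from 38.1 ± 8.3 to 263 ± 21.8 (log2 difference 2.38, adjusted p = 2.80e-07) and SESN3 from 171.5 ± 35.3 to 422 ± 37.2 (1.24, adjusted p = 4.37e-05). SESN1 fell from 40.5 ± 2.87 to 30.7 ± 5.57 (-0.28, adjusted p = 0.045), a call lost without any one array except clone sample 2 (adjusted p = 0.0511 to 0.145), and also with no filter (0.0601), with 1 or 64 added (0.0564 and 0.0672) and with the unmoderated variance (0.0904). Over these 3 genes the median was 1.24, or 0.31 when each gene was taken as the median of its probe sets. The brightest probe sets given here therefore do not stand for all tested probe sets of these genes.

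NRF2 is the transcription factor that induces many antioxidant genes, and KEAP1 holds it in check. Of 17 tested genes of this axis 5 rose, 7 fell and 5 did not pass, where 67.1% of all genes passed. The median log2 difference was -0.06. Among the genes that fell were aldo-keto reductases: AKR1C3 went from 2001 ± 130 to 25.2 ± 1.5 (-5.61, adjusted p = 2.18e-10) and AKR1C1 from 928 ± 21.7 to 22.3 ± 2.66 (-4.62, adjusted p = 4.46e-10). Both are of a family of near-identical genes, so which member is read is uncertain. ME1, malic enzyme, was at least 58.2-fold lower (adjusted p = 2.01e-09), while the exporter ABCC2 rose from 12.3 ± 2.36 to 117 ± 16.8 (2.23, adjusted p = 2.56e-07). KEAP1 stood at 939 ± 51.9 and 990.1 ± 19.9 and did not pass (adjusted p = 0.471).

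For MMACHC the related genes are those of cobalamin handling. Of 13 tested, 5 rose, 1 fell and 7 did not pass, where 67.1% of all genes passed. The median log2 difference was 0.18. ABCD4, which with LMBRD1 passes cobalamin out of the lysosome, fell from 186 ± 20.2 to 72.3 ± 11.8 (-1.20, adjusted p = 2.47e-05). LMBRD1 rose from 287 ± 39.6 to 435 ± 41.1 (0.58, adjusted p = 0.00205), MCEE, an epimerase of propionate breakdown, from 120 ± 7.99 to 237 ± 26.6 (0.89, adjusted p = 6.16e-05) and CUBN, a receptor of uptake, from 5.47 ± 1.26 to 20 ± 8.24 (0.72, adjusted p = 0.00331). MMADHC, which acts on cobalamin after MMACHC, read 1190.4, 1190.0 and 1377.4 against 1675.7, 1594.3 and 1757.9 (0.42, adjusted p = 0.00439). None of these 13 genes differed by as much as MMACHC on this scale, the largest being -1.20.

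**Figure D3:**
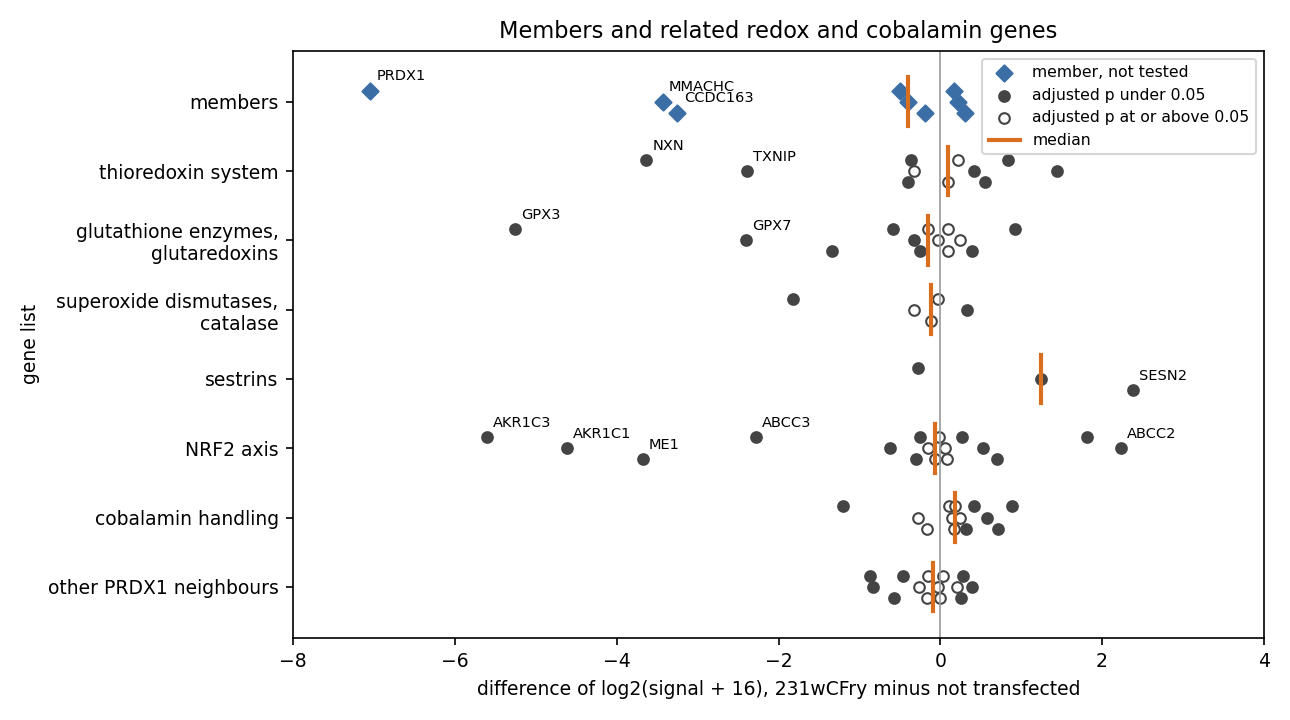
Difference of log2(signal + 16), 231wCFry minus untransfected, with each gene shown by its brightest tested probe set (n = 3 arrays a group); blue diamonds are the 9 members read, which carry no test, filled circles passed at an adjusted p under 0.05, open circles did not, and orange bars are medians. PRDX1 at -7.05 lies left of every related gene, of which AKR1C3 at -5.61 is the nearest.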

How the data were processed

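The deposited values are intensity values of 1-colour Affymetrix arrays, which the submitters' processing notes credit to MAS5, Affymetrix's signal algorithm, with no version given. Per the labels, 40 ng of RNA from cultures at 70% confluence was amplified. Each array had a mean of 150 after trimming 2% at each end, and medians of 10.4 to 12.1. Array number limits precision.

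Probe sets were named from GEO's platform annotation (41091 name 1 gene, 1801 several, 11721 none; 62 controls left out). A RefSeq table (GRCh38.p14) gave names and gene order. On log2(signal + 16), 32771 probe sets at or above the 40th percentile of mean signal (5.87) were fitted over all 6 arrays with lmFit and eBayes (limma 3.58.1, R 4.3.3), adjusted by Benjamini-Hochberg over all, threshold 0.05. The fit was tested on simulated data with known changes. A gene is its brightest tested probe set. Standard errors are limma's. Named are all members, neighbours within 10 places, the 5 genes nearest PRDX1 and up to 4 smallest p per list; TXNRD1, KEAP1, MMADHC, PMEL, CDH1, VIM and further probe sets of NASP, UROD and IPP were added after their values were seen. Members and lists were chosen with earlier results of these data known. Figures used matplotlib 3.10.9.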

Additional observations from a re-analysis of the deposited data

How the results depend on the processing

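Alternatives were added amounts of 1 and 64, no filter, a 60th percentile filter, quantile normalization, unmoderated variance, the replicate number as a block, leaving out each array, leaving out probe set types and the median over a gene's probe sets. Over all 32771 probe sets tested 20506 (62.6%) were called, and 18744 to 19667 without one array. Of the 16 member probe sets 9 would be called, and 7 to 9 without one array. Without the _x_at and _s_at types 5 would be called, which leaves fewer to call. The share of all probe sets called without these types was not computed, so nothing is read from that count. With 64 added, 12 member probe sets would be called, where 20171 of all 32771 were. Of 101 list and neighbour genes 67 were called, 61 to 66 without one array, and 56 were called in every setting that tested them; none reversed. Deviations of same-numbered samples correlated weakly (0.070, 0.074 and 0.187), beside -0.134 to 0.079 for samples of unlike number. Whether the samples are paired is therefore not settled. With the replicate block 20842 probe sets, 9 member probe sets and 71 list and neighbour genes were called. Among the genes named, the block would call MAST2, CCS and PMEL lower (adjusted p = 0.0369, 0.0148 and 0.0396) and not SOD2 (0.0555). The added amount sets the size for dim groups: PRDX1 was -8.43 with 1 and -5.50 with 64, MMACHC -5.92 and -1.88, and the brighter probe set of CCDC163 -5.02 and -1.83. The sign held for 13 of 16 member probe sets in every setting, the exceptions being the 3 dimmer probe sets of PRDX2. Signals near the bacterial controls give bounds only.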
